A study of Mus musculus with 67 samples.

Results

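Crypts isolated from mice 3 days after irradiation were compared with crypts from normal mice by bulk RNA sequencing. The comparison used the libraries that the labels call IR day 3 and Normal, 2 of each, which are 4 of the 67 samples of the series. All came from mouse small intestine, were made from total RNA, and were deposited as 1 table of TPM, a unit in which the reads of a gene are divided by its length and scaled to the total of the library. IR day 3 stands for crypts taken 3 days after irradiation with no added agent named, and Normal for crypts with no irradiation named. The study irradiated whole animals with a single dose, used female mice for these experiments and bought C57BL/6 mice; the labels give no strain, genotype or age for the crypts. Crypts were shaken off the proximal small intestine in EDTA and passed through a strainer, so the RNA is that of whole crypts with whatever cells came along. The labels number the libraries and name no animal, so the p-values measure the spread between these libraries. Crypts from days 1, 2 and 5 after irradiation (IR day 1, IR day 2 and IR day 5, 2 libraries each) were used for comparison of day 3 with the other days. The other 8 crypt libraries, IR+VE, came from irradiated mice given VPA (valproic acid, a histone deacetylase inhibitor) and EPZ6438 (which blocks the methyltransferase EZH2), and entered the estimate of the spread, the minimum level and the scaling, with no comparison of their own.

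The intestinal crypt is a pit lined by epithelium, with Lgr5+ stem cells and Paneth cells at its base, dividing transit-amplifying cells above them, and goblet cells, enteroendocrine cells, tuft cells and enterocytes that leave it upwards. Ionizing radiation breaks DNA and activates the transcription factor p53, which arrests or kills dividing cells, and the crypt base stem cells are among the cells that are lost. Crypts that survive regrow over the following days. Regrowing crypts are known for a fetal-like state, with genes of the fetal gut epithelium such as Ly6a and Anxa1, and for revival stem cells that are marked by Clu and depend on the transcriptional co-activator YAP.

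Transcripts of the mitochondrial genome, 13 genes with symbols that start with mt-, took 18.1% and 12.7% of the listed TPM in the Normal libraries and 48.4% and 37.9% in the IR day 3 libraries. In the other 14 crypt libraries the share was between 10.6% and 41.5%. These genes were left out and each library was rescaled to 1000000 TPM; all values in TPM below are on this scale. Of 29579 genes listed, 11556 averaged 1 TPM or more across the 18 crypt libraries and were tested with limma on log2(TPM + 1), with Benjamini-Hochberg adjustment over all of them. Fold changes below are on this log2(TPM + 1) scale, which understates the change of genes with low levels. A gene was called higher or lower, or is said to have risen or fallen, when its adjusted p was below 0.05 and it had changed 2-fold or more.

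Between the Normal and IR day 3 libraries, 620 genes were called higher (5.37% of those tested) and 3546 lower (30.7%). The median log2 fold change over all genes was -0.57. Quantile normalization, which gives every library the same distribution of values, moved that median to 0.02 and the calls to 1479 higher (12.7%) and 1704 lower (14.7%). The share of calls that were higher moved from 14.9% to 46.5%. Fold changes also followed transcript length above 500 bases. The median was -0.16 for genes with 1001 to 2000 bases of annotated exons, -0.54 for 3001 to 5000 bases and -0.97 above 8000 bases. In the class of up to 500 bases, where 131 of the 269 genes were immunoglobulin genes, it was -1.91, and 0 without them. With the trend of each library with length removed, 1424 genes were called higher (12.3%) and 1546 lower (13.4%), with a median of 0.01. Of the calls, 619 genes were higher under all 3 scalings and 1345 lower, and no gene was called in opposite directions by the mitochondria-free and the quantile scaling. Results below are on the mitochondria-free scale, with the others beside the main ones. The libraries of a group correlated at 0.969 (Normal) and 0.973 (IR day 3) over genes on the log2 scale, and ribosomal protein genes took 20.8% and 20.4% of TPM in the Normal libraries against 23.5% and 23.7% on day 3. The mitochondrial share moved with the groups, and its part in these shifts was not tested. TPM values keep no read depth, so how deeply each library was sequenced is unknown.

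**Figure D1:**
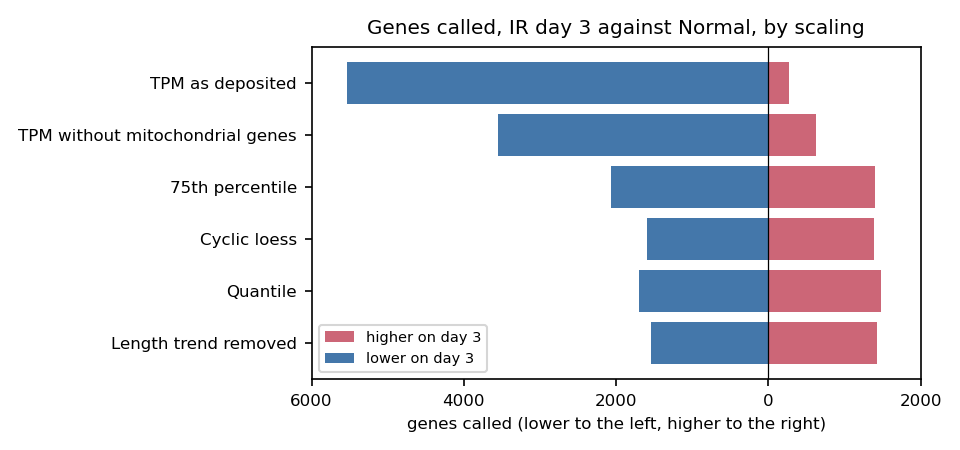
Number of genes called higher and lower in IR day 3 against Normal crypts (adjusted p under 0.05 and at least 2-fold by limma) under 6 ways of scaling the 18 crypt libraries. The number of lower genes was 3546 with mitochondrial genes left out and 1704 after quantile normalization, and that of higher genes 620 and 1479.

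Genes of the fetal-like and revival state were higher on day 3. Of 24 genes listed for it, 23 were measured above the minimum, and 21 were called higher and 0 lower, against 5.37% and 30.7% of all genes. Of these 23, 2 had a Normal mean below the minimum, and 19 of the other 21 were higher. The median log2 fold change of the 23 was 2.66. After quantile normalization 22 were higher, with the length trend removed 21, and the same 21 under all 3 scalings. Leaving out each of the 4 libraries in turn gave 19 each time. Basp1 was below the minimum level, and Cnn2 (11 and 11 TPM against 16.3 and 17.5 TPM) and Ly6e (262 and 245 TPM against 197 and 253 TPM) did not pass the test.

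Clu encodes clusterin, a secreted chaperone and the marker of revival stem cells (chr14:65968483-65981547; positions here and below are from GENCODE M21 on GRCm38, the build named mm10). Its level was 10.5 and 8.29 TPM in the Normal libraries and 200.1 and 272 TPM in the IR day 3 libraries. The groups did not overlap, and Clu rose by a log2 fold change of 4.5 ± 0.40 (SE, n = 2 libraries a group, limma adjusted p = 4.4e-06), or 4.79 after quantile normalization. Ly6a, which encodes the surface protein Sca-1 (chr15:74994877-74998031), was at 24.6 and 11.5 TPM in the Normal libraries and 762 and 950.0 TPM in the IR day 3 libraries. Both day 3 libraries were far above both Normal libraries (5.57 ± 0.46, quantile 5.74, limma adjusted p = 3.0e-06). Anxa1, which encodes the phospholipid-binding protein annexin A1 (chr19:20373428-20390944), was low in normal crypts at 2.53 and 1.01 TPM and stood at 335 and 311 TPM on day 3. Among called genes whose groups did not overlap, predicted genes left aside, its rise was the largest (6.92 ± 0.31, quantile 7.2, limma adjusted p = 2.1e-08). Il1rn, the secreted antagonist of the interleukin-1 receptor (chr2:24336853-24351494), was at 4.04 and 1.25 TPM in the Normal libraries and 246 and 252 TPM in the IR day 3 libraries. Its groups did not overlap either (6.21 ± 0.44, quantile 6.49, limma adjusted p = 8.9e-07).

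Other secreted and surface proteins of the list moved the same way. Il33, an alarmin of epithelial cells, was at 3.86 and 3.7 TPM in the Normal libraries and 45 and 62.5 TPM in the IR day 3 libraries (log2 fold change 3.5). Msln, mesothelin, was at 3.09 and 4.14 TPM against 19.3 and 48.7 TPM with a wide spread on day 3, and F3, tissue factor, at 4.52 and 7.09 TPM against 30.2 and 38.2 TPM. Plaur, the urokinase receptor, was at 7.99 and 9.35 TPM against 35.8 and 58.9 TPM. In each of these 4 genes the lower day 3 library lay above the higher Normal library. Emp1, an epithelial membrane protein, rose from 36.8 and 35.9 TPM to 244 and 312 TPM. The smallest called rises were those of the EGF receptor ligands Areg (41.8 and 41 TPM against 81 and 92.8 TPM) and Ereg (0.58 and 0.49 TPM against 2.24 and 2.69 TPM) and of the raft protein Mal (1.05 and 1.71 TPM against 4.34 and 4.12 TPM). Areg and Mal, with log2 fold changes of 1.05 and 1.15 close to the limit, lost their calls whichever of the 4 libraries was left out. Msln, F3, Plaur, Emp1 and Mal were named after their values were seen.

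**Figure D2:**
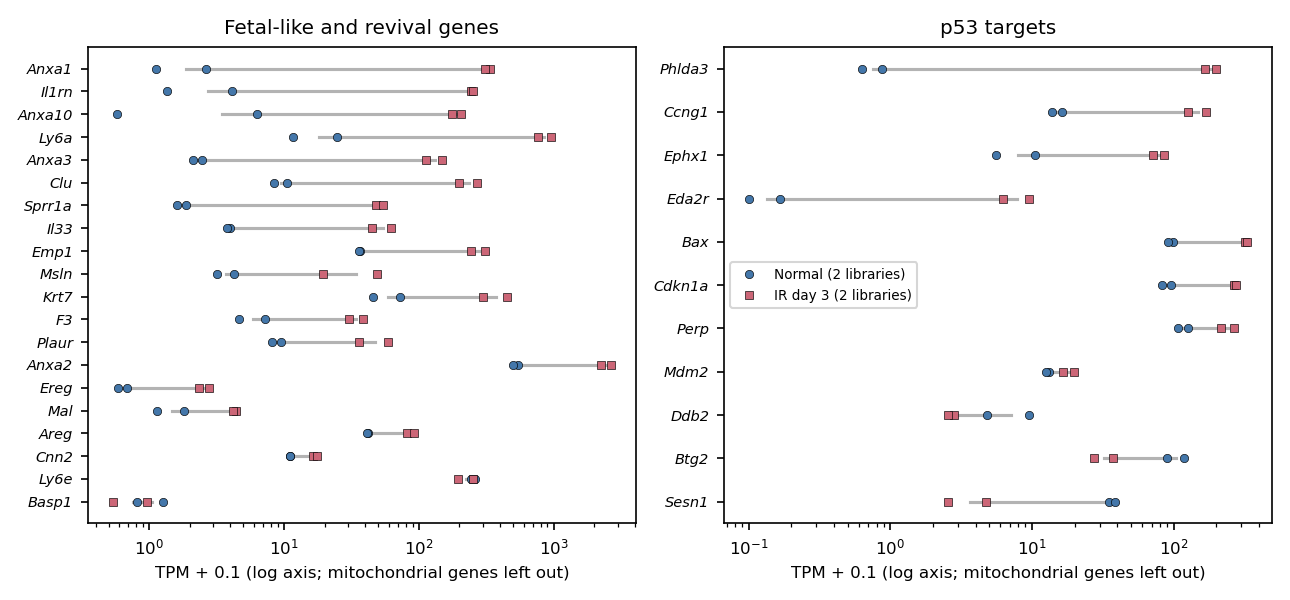
Levels of the named fetal-like and revival genes and p53 targets in the 2 Normal and 2 IR day 3 libraries, as TPM + 0.1 on a log axis, with mitochondrial genes left out. Each point is a library and each grey line joins the group means; Clu, for example, lies at 10.5 and 8.29 TPM in Normal and at 200.1 and 272 TPM on day 3.

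Part of the promoters of this list held a short sequence that the choice of the list did not use. AP-1, the dimer of Fos and Jun family proteins that acts in stress and wound responses, binds TGANTCA. Of the 24 genes, 15 had an entry in the RefSeq promoter table (GRCm38.p6, 250 bases before the start of each gene), and 7 of these (46.7%) held the letters on either strand, against 6.83% of 27022 promoters in the table and 10.8% of the promoters of all genes called higher. Letters of the TEAD factors through which YAP acts, GGAATG, were in 3 of 15 (20%), against 12.6% of all promoters. The other 8 promoters, that of Anxa1 among them, held no TGANTCA in this window. The promoters of 4 members with the letters are shown 5′ to 3′ with TGANTCA in capitals, each ending before the annotated start of transcription: Anxa10 at chr8:62123194-62123443 (minus strand), Sprr1a at chr3:92485896-92486131 (minus strand), Il1rn at chr2:24336610-24336852 (plus strand) and Plaur at chr7:24462233-24462482 (plus strand). A match describes the sequence and is not shown to be a binding site.
Anxa10: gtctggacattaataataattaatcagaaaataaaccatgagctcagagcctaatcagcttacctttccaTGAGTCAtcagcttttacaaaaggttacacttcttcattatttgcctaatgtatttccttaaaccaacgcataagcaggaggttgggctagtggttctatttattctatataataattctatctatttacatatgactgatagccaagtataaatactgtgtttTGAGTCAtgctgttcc
Sprr1a: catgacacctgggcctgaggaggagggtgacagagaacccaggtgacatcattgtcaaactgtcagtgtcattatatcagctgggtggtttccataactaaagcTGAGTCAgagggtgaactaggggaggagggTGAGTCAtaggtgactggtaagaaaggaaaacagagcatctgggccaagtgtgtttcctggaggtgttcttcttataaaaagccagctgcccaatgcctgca
Il1rn: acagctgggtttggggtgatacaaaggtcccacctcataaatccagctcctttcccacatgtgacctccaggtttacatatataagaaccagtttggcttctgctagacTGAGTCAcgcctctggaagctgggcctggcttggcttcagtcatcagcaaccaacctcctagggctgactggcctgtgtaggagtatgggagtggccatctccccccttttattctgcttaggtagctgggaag
Plaur: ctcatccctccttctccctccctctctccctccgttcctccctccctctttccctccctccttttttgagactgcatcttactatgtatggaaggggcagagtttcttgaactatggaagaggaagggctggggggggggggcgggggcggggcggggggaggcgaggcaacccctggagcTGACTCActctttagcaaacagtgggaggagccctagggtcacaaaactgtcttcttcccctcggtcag

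Many members of several protein families were higher. The families were chosen for description after their values were seen, and the genes named in this paragraph and the next, other than Anxa1, Anxa8, Anxa10, Ly6a, Ly6d, Gml, S100a6, S100a8, S100a9, Sprr1a, Sprr2a3, Krt18 and Cma1, were too. The minimum was set over all 18 crypt libraries, so a gene near 0 in normal crypts was tested only if it was higher in other groups, and the number of such genes, with a Normal mean below 1 TPM, is given beside each count. Of all genes, 5.37% were higher, and 12.7% after quantile normalization, which the counts of each family stand beside. Of 11 annexins tested, 6 were higher and 0 lower, and the same counts were 8 and 0 after quantile normalization. Of the 11, 2 had a Normal mean below 1 TPM, and 5 of the other 9 were higher. Anxa8 was at 0.11 and 0.187 TPM in the Normal libraries and 89.1 and 136 TPM in the IR day 3 libraries (6.6 ± 0.28, limma adjusted p = 1.4e-08). Anxa10, with the AP-1 letters shown above, was at 0.474 and 6.21 TPM in the Normal libraries and 175 and 206 TPM in the IR day 3 libraries, with the Normal libraries far apart. Anxa3 rose from 2.01 and 2.37 TPM to 114 and 148 TPM, and Anxa2, already abundant in normal crypts, from 545 and 501 TPM to 2231 and 2670.2 TPM. Of 16 keratins, the intermediate filament proteins of epithelia, 12 were higher and 1 lower. All 8 keratins with a Normal mean below 1 TPM were among the higher genes, and 4 of the other 8 were higher. Krt5 was listed at 0 in both Normal libraries and at 12.1 and 12.7 TPM on day 3, and Krt15 and Krt23 rose from 1.68 and 2.1 TPM to 35.4 and 42 TPM and from 1.95 and 4.97 TPM to 91.2 and 109 TPM. Krt7 rose from 45.3 and 72.4 TPM to 299.7 and 449 TPM. The keratins of simple epithelium were divided: Krt18 rose from 206 and 331 TPM to 799 and 1164 TPM, under all 3 scalings, and Krt8 (3016 and 3939.8 TPM against 3895 and 4823 TPM) and Krt19 (2737 and 3014 TPM against 3667 and 4557 TPM) did not pass the fold limit. The keratin that fell was Krt10, a keratin of stratified epithelium, from 4.76 and 4.39 TPM to 0.667 and 0.792 TPM, also under all 3 scalings.

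A run of 78 listed genes on chromosome 3 (chr3:90511034-93564643) holds the S100A calcium-binding proteins and the small proline-rich proteins (Sprr) of the cornified envelope. Of its 17 tested genes, 16 were higher and 0 lower, and 17 were higher after quantile normalization (5.37% and 12.7% of all genes were higher). Of the 12 S100A genes 4, and of the 5 Sprr genes 1, had a Normal mean below 1 TPM; 7 of the other 8 and all of the other 4 were higher. S100a6 (calcyclin, chr3:90612882-90624181) was at 151 and 182 TPM in the Normal libraries and 11786 and 13844 TPM in the IR day 3 libraries. The groups did not overlap (6.26 ± 0.21, quantile 5.88, limma adjusted p = 8.3e-10). S100a11 rose from 180.5 and 204 TPM to 2749.8 and 3108 TPM and S100a14 from 12.9 and 15.9 TPM to 372 and 397 TPM. Sprr1a was at 1.78 and 1.5 TPM against 48 and 54.4 TPM, Sprr2a3 at 20.6 and 16.4 TPM against 942 and 1121 TPM and Sprr2a2 at 873 and 566 TPM against 18935 and 21886 TPM; the Sprr2a genes are near-identical copies, and the division of reads among them is uncertain. Another run, of 18 listed genes on chromosome 15 (chr15:74762056-75567255), holds the Ly6 and Gml surface proteins, with 6 of 7 tested genes higher under the mitochondria-free and the quantile scaling. Of the 7, 4 had a Normal mean below 1 TPM and were higher, and 2 of the other 3 were. Ly6d was at 15.5 and 7.07 TPM in the Normal libraries and 936 and 894 TPM in the IR day 3 libraries (6.31 ± 0.39, limma adjusted p = 3.9e-07). Gml rose from 0.191 and 0.752 TPM to 134 and 84.4 TPM, and Ly6g was listed at 0 in both Normal libraries and at 25.9 and 27.3 TPM on day 3. Copies in this family are also alike in sequence. The 3 gasdermin C genes tested, which encode pore-forming proteins, fell, and all 3 had a day 3 mean below 1 TPM and passed the minimum only through the Normal libraries, so that a fall was fixed by the minimum. Gsdmc4 was at 45.1 and 67.3 TPM against 0.951 and 0.644 TPM.

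Transcriptional targets of p53 were higher in part. Of 28 targets tested, 11 were called higher and 3 lower, against 5.37% and 30.7% of all genes, with a median log2 fold change of 0.59; the counts were 17 higher and 2 lower after quantile normalization, and 17 higher and 2 lower with the trend with transcript length removed. Of the 28, 3 had a Normal mean below 1 TPM, 2 of them among the higher genes, and 9 of the other 25 were higher. Cdkn1a (p21, the inhibitor of cyclin-dependent kinases, chr17:29090976-29100727) was at 96.3 and 82.2 TPM in the Normal libraries and 266 and 276 TPM in the IR day 3 libraries (1.6 ± 0.16, quantile 1.87, limma adjusted p = 1.4e-05). Phlda3, which encodes an inhibitor of AKT kinase (chr1:135766119-135769136), was at 0.531 and 0.77 TPM in the Normal libraries and 167 and 198 TPM in the IR day 3 libraries. No other gene of the list changed as much (6.8 ± 0.20, quantile 7.14, limma adjusted p = 2.6e-10). Ccng1, cyclin G1, rose from 16.1 and 13.7 TPM to 126 and 170.3 TPM, and Ephx1, an epoxide hydrolase, from 5.44 and 10.4 TPM to 71.7 and 85.3 TPM.

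The pro-apoptotic Bax rose from 99.8 and 91.9 TPM to 317 and 330.3 TPM, the receptor gene Eda2r from 0 and 0.0676 TPM to 6.12 and 9.39 TPM, and the desmosomal Perp from 126 and 107 TPM to 217 and 267 TPM; Perp lost its call without IR day 3 replicate 2 or Normal replicate 2, and these 3 genes were named after their values were seen. Mdm2, the ubiquitin ligase that limits p53, did not pass the fold limit (13 and 12.5 TPM in the Normal libraries and 19.8 and 16.4 TPM in the IR day 3 libraries), and was called higher after quantile normalization. Among targets that fell, Sesn1 (a sestrin, which restrains mTORC1) was at 34.6 and 38.4 TPM in the Normal libraries and 4.64 and 2.45 TPM in the IR day 3 libraries and Btg2 (an antiproliferative protein) at 90.4 and 118 TPM against 37.1 and 27.5 TPM, with no overlap of the groups in either gene (log2 fold changes -3.09 and -1.66, lower under all 3 scalings). Ddb2, a damage sensor of nucleotide excision repair, was at 4.69 and 9.43 TPM against 2.7 and 2.46 TPM; it was called lower under the mitochondria-free scaling alone of the 3, and lost the call without IR day 3 replicate 2 or Normal replicate 2.

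Of 28 targets, 20 had a RefSeq promoter entry. In 5 of them (25%) the 250 bases before the start held the letters of a p53 half-site on either strand. The letters are RRRCWWGYYY, with R for A or G, W for A or T and Y for C or T. The share was 7.18% of all promoters and 10.8% of those of all genes called higher. The promoters of Phlda3, Ephx1 and Eda2r held no match, and a match is not shown to be a binding site. The 2 shown have the motif in capitals, Cdkn1a at chr17:29090729-29090975 (plus strand) and Bax at chr7:45466899-45467148 (minus strand), on GRCm38 from 5′ to 3′.
Cdkn1a: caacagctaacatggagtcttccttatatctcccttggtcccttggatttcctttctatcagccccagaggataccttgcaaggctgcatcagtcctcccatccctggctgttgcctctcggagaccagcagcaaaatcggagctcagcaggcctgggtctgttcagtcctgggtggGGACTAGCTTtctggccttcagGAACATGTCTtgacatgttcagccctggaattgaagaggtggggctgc
Bax: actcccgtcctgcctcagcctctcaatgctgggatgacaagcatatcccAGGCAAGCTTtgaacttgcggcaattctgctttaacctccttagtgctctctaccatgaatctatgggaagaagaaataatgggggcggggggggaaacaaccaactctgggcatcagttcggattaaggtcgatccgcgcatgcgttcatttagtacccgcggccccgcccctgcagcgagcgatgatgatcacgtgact

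Genes of mitosis were lower on day 3. Of 44 mitosis genes tested, 31 were called lower and 0 higher, against 30.7% and 5.37% of all genes, with a median of -1.4; after quantile normalization 14 were lower (14.7% of all genes), with the length trend removed 14 (13.4%), and 12 under all 3 scalings. Mki67, the proliferation marker (chr7:135689784-135716361), was at 5.97 and 9.32 TPM in the Normal libraries and 0.165 and 0.182 TPM in the IR day 3 libraries (-2.85 ± 0.47, quantile -2.69, limma adjusted p = 3.7e-04). Top2a, the topoisomerase that untangles DNA in mitosis, was at 43.9 and 43.2 TPM in the Normal libraries and 4.83 and 7.71 TPM in the IR day 3 libraries. Its groups did not overlap (-2.64 ± 0.30, quantile -1.9, limma adjusted p = 2.9e-05). Cenpe, a kinesin of the kinetochore, was at 7.01 and 6.46 TPM against 0.371 and 0.0558 TPM. Ccnb1, cyclin B1, was at 29.1 and 43.9 TPM in the Normal libraries and 16.2 and 24.8 TPM in the IR day 3 libraries, a difference that did not pass the fold limit.

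Of 40 DNA replication genes tested, 10 were lower and 0 higher, a share below the 30.7% of all genes, with a median of -0.63 beside -0.57 over all genes; the counts were 1 higher and 1 lower after quantile normalization, and 0 higher and 4 lower with the trend with transcript length removed. Pcna, the sliding clamp, was at 140.0 and 154 TPM in the Normal libraries and 121 and 143 TPM in the IR day 3 libraries, and Mcm2, a subunit of the replicative helicase, at 10.7 and 22.2 TPM against 7.72 and 11.2 TPM; neither passed the test and the groups overlapped in both. Cdt1, which loads the helicase, was lower under all 3 scalings (15.5 and 23.2 TPM in the Normal libraries and 4.12 and 5.46 TPM in the IR day 3 libraries, -1.8). Pold1 (DNA polymerase delta, 13.7 and 24.5 TPM against 3.93 and 5.84 TPM) and Lig1 (DNA ligase I, 14.9 and 20.7 TPM against 4.23 and 5.14 TPM) were lower under the mitochondria-free scaling and with the length trend removed, and not after quantile normalization. In homologous recombination and Fanconi repair, 8 of 16 genes were lower (30.7% of all genes), with 2 after quantile normalization (14.7% of all genes) and 3 without IR day 3 replicate 1 or Normal replicate 2. Of the 16, 8 had a day 3 mean below 1 TPM, 3 of them among the lower genes, and 5 of the other 8 were lower. Clspn, claspin of the replication checkpoint, was lower under all 3 scalings (2.62 and 3.44 TPM against 0.152 and 0.146 TPM), and Brca2 (5.62 and 4.73 TPM against 0.605 and 0.45 TPM) under the first 2.

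In ribosome biogenesis 6 of 20 genes were lower and 1 higher, again no larger a share than of all genes, and 3 were lower without IR day 3 replicate 1 or Normal replicate 2. Nolc1, a nucleolar phosphoprotein, was lower under all 3 scalings (16.9 and 23.8 TPM against 2.86 and 4.06 TPM) and fibrillarin, Fbl, was at 119 and 155 TPM against 116 and 148 TPM.

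**Figure D3:**
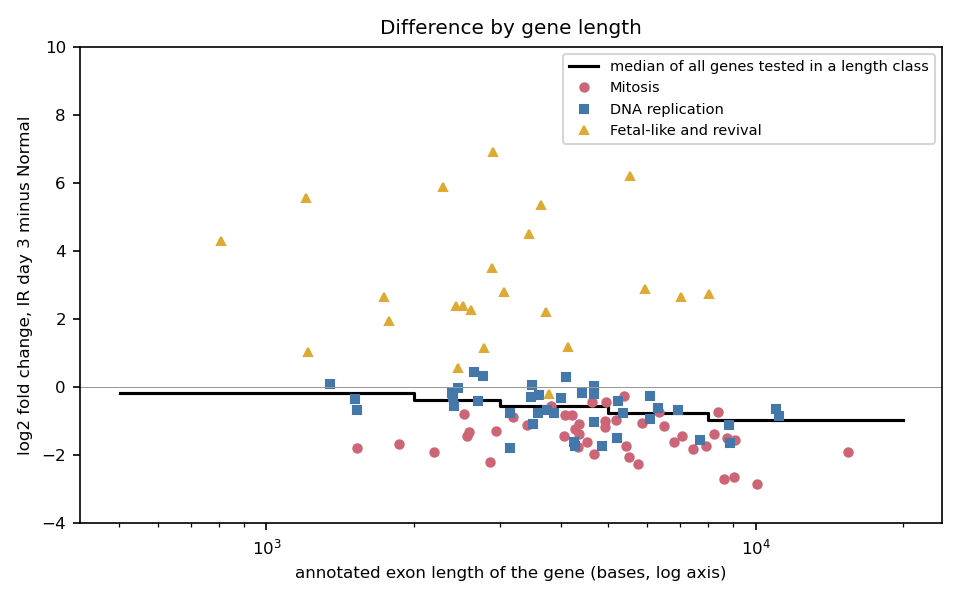
Log2 fold change of IR day 3 against Normal by annotated exon length in bases on a log axis, with the median of all tested genes in each length class above 500 bases as a stepped line and the members of the mitosis, DNA replication and fetal-like lists as points. The class median goes from -0.16 at 1001 to 2000 bases to -0.97 above 8000 bases, while the fetal-like members lie at a median of 2.66.

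Of 44 mitosis genes, 36 had a promoter entry. The CCAAT box, bound by NF-Y and frequent in genes of the G2 and M phases, was in 27 of them (75%), against 34.5% of all promoters, and the letters TTTGAA of the cell cycle homology region in 10 (27.8%), against 16.3%. The promoters of Mki67 at chr7:135716380-135716629 (minus strand) and Top2a at chr11:99024190-99024439 (minus strand) are printed with CCAAT in capitals, or ATTGG where it is on the other strand.
Mki67: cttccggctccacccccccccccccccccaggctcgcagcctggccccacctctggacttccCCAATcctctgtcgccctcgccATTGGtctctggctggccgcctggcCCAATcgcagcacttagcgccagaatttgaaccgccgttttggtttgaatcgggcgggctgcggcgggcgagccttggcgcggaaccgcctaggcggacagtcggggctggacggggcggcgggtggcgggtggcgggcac
Top2a: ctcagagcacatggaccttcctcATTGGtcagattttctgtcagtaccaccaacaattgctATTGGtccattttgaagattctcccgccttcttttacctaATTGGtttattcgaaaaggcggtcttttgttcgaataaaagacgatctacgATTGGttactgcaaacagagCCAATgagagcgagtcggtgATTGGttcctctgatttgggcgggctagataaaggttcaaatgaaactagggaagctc

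Markers of the crypt base stem cell were mixed. Of 14 tested, 6 were lower and 1 higher (30.7% and 5.37% of all genes), and the counts were 2 higher and 2 lower after quantile normalization, and 2 higher and 3 lower with the trend with transcript length removed. Without Normal replicate 1, 10 were lower. Lgr5, the receptor for R-spondin that defines these cells, was low in all libraries, at 0.766 and 1.99 TPM in the Normal libraries and 0.288 and 0.174 TPM in the IR day 3 libraries; the groups did not overlap and the difference did not pass the test. Olfm4, a secreted marker of the same cells that Notch controls (chr14:79984081-80023139), was at 280.1 and 475 TPM in the Normal libraries and 18.9 and 11 TPM in the IR day 3 libraries. Its fall held under all 3 scalings (-4.56 ± 0.41, quantile -4.0, limma adjusted p = 5.3e-06). Smoc2 fell from 24.1 and 49.2 TPM to 4.9 and 7.4 TPM. Ascl2, the transcription factor of the stem cell state, was at 6.07 and 16.6 TPM in the Normal libraries and 10.0 and 15.1 TPM in the IR day 3 libraries, with overlapping groups; it was named after its values were seen. Igfbp4, a binding protein of insulin-like growth factors, was the member that rose, from 11.6 and 25.5 TPM to 46.2 and 58.9 TPM. In bulk RNA of whole crypts, fewer cells of a type and less RNA per cell cannot be told apart, here or for any other cell type.

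Among signals that maintain these cells, Wnt targets showed no common direction on the mitochondria-free scale. Of 11 tested, 1 was higher and 1 lower, against 5.37% and 30.7% of all genes, with a median of -0.01. Axin2, the feedback inhibitor of the pathway, was the member called lower (10.7 and 21.5 TPM in the Normal libraries and 1.18 and 0.668 TPM in the IR day 3 libraries, -3.09 ± 0.53, quantile -2.56, limma adjusted p = 5.3e-04). Cd44, a hyaluronan receptor, was the member called higher (3.88 and 5.29 TPM in the Normal libraries and 19 and 19.2 TPM in the IR day 3 libraries). After quantile normalization 4 of 10 were higher (12.7% of all genes) and 1 lower, with a median of 0.88. With the length trend removed 3 of 11 were higher (12.3% of all genes) and 1 lower, with a median of 0.50. Without Normal replicate 1, 3 Wnt targets were lower, and without any of the other 3 libraries 2 were higher. Of 7 Notch genes tested, 4 were lower and 0 higher, against 30.7% and 5.37% of all genes. After quantile normalization 3 were lower, and 2 with the length trend removed. Of the 7, 4 had a day 3 mean below 1 TPM, 3 of them among the lower genes, and 1 of the other 3 was lower. Hes1, the Notch target that holds back secretory fate, was at 42.1 and 58.8 TPM in the Normal libraries and 12.8 and 9.57 TPM in the IR day 3 libraries, and the ligand gene Dll1 at 13.5 and 13.1 TPM against 0.83 and 0.885 TPM; both were lower under all 3 scalings. Notch1 was at 1.07 and 5.39 TPM against 0.155 and 0.119 TPM and lost its call without IR day 3 replicate 2 or Normal replicate 2, and with the length trend removed.

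Among EGF family ligands, Btc (betacellulin) rose from 0.839 and 1.62 TPM to 9.78 and 12.8 TPM and Areg and Ereg rose as given above, while Hbegf, the heparin-binding ligand, fell from 125 and 156 TPM to 8.73 and 8.02 TPM. The receptor genes Erbb2 (21.6 and 31.4 TPM against 2.6 and 3.31 TPM) and Erbb3 (19.1 and 26.5 TPM against 2.98 and 3.4 TPM) fell under all 3 scalings, and Egfr was at 1.48 and 4.6 TPM against 5.31 and 6.39 TPM, called higher after quantile normalization and with the length trend removed. Of the YAP targets that the study had chosen for its crypt panel, 8 were tested and 5 were higher under each of the 3 scalings, against 5.37% of all genes on the mitochondria-free scale. Of the 8, 3 had a Normal mean below 1 TPM, 2 of them among the higher genes, and 3 of the other 5 were higher. They were Ajuba (0.586 and 0.769 TPM against 2.65 and 6.0 TPM), Il33, Anxa1, Areg and Ereg, of which all but Ajuba are also in the fetal-like list. Anxa6 was at 8.05 and 5.2 TPM against 5.21 and 2.99 TPM and Amotl2 at 1.66 and 2.36 TPM against 0.196 and 0.572 TPM, neither passing the test. The study showed these genes in these same crypts, so the panel is not independent evidence of a direction.

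Immediate early genes, which respond to growth factors and stress within minutes, were lower in 13 of 15 tested and higher in 0, against 30.7% and 5.37% of all genes, and 12 were lower after quantile normalization and with the length trend removed. This group and its genes were chosen after their values were seen. Fos was at 668 and 1107 TPM in the Normal libraries and 59.9 and 47.7 TPM in the IR day 3 libraries, Jun at 363 and 564 TPM against 26.7 and 23.2 TPM and Egr1 at 151 and 242 TPM against 5.81 and 3.78 TPM, with wide gaps between the groups. Fosl1, another AP-1 subunit, was at 2.25 and 4.33 TPM against 1.69 and 4.33 TPM, with overlapping groups.

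Paneth cell genes showed no common direction. Of 10 listed defensins, antimicrobial peptides of Paneth granules, none was called by limma (0 at an adjusted p under 0.05 with 2-fold, 1 at an unadjusted p under 0.05, 0 higher and 0 lower after quantile normalization). Defa24 was at 10876 and 25581 TPM in the Normal libraries and 18899 and 30995 TPM in the IR day 3 libraries and Defa30 at 4054 and 9501 TPM against 2562 and 10490.1 TPM, with overlapping groups; reads of these near-identical genes may be split between copies. Without IR day 3 replicate 2, 5 of the 10 were lower, and without IR day 3 replicate 1, 2 were higher. Over all 19 alpha-defensin genes tested, a family added after the values were seen, 2 were higher and 2 lower, 3 and 1 after quantile normalization, and 4 and 1 with the length trend removed. Defa32 (1070.3 and 1171 TPM against 3377 and 3299 TPM) rose and Defa28 (44.2 and 83.3 TPM against 17.5 and 12.1 TPM) fell under all 3 scalings. Defa35 (166 and 208 TPM against 445 and 325 TPM) rose under the 3 scalings too, and lost its call without IR day 3 replicate 1 or Normal replicate 1. Defa29 (865 and 1344 TPM against 298 and 876 TPM) was lower under the mitochondria-free scaling alone of the 3, and not without IR day 3 replicate 1 or Normal replicate 2. Of the 19, 7 were lower without IR day 3 replicate 2 and 1 without IR day 3 replicate 1 or Normal replicate 2, and 1 was higher without Normal replicate 1. Lyz1, lysozyme, was at 2928 and 6495 TPM in the Normal libraries and 3473 and 6256 TPM in the IR day 3 libraries. Of the 7 Paneth cell genes other than defensins, Lyz1 among them, 1 was higher and 1 lower, against 5.37% and 30.7% of all genes. Mmp7, the protease that activates defensins, rose from 250.4 and 419.9 TPM to 1798 and 1516 TPM (2.34 ± 0.31, quantile 2.24, limma adjusted p = 9.2e-05). Mptx2 was the member called lower, under the mitochondria-free scaling alone of the 3. Its quantile-normalized levels were 687 and 857 TPM in the Normal libraries and 246 and 720 TPM in the IR day 3 libraries.

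Of 10 goblet cell genes, 3 were lower and 0 higher, near the share of all genes, and 6 were lower without Normal replicate 1. Clca1 (83.8 and 187 TPM against 32 and 29.6 TPM) and the transcription factor gene Creb3l1 (6.73 and 11 TPM against 1.55 and 1.09 TPM) fell under all 3 scalings. Muc2, the gel-forming mucin, was at 108 and 222 TPM in the Normal libraries and 76.9 and 46.4 TPM in the IR day 3 libraries and did not pass the test, and Tff3 was at 4196 and 4669.7 TPM against 6869.5 and 4980.4 TPM. Of 15 enteroendocrine genes, 3 hormone genes were higher and 2 genes lower, against 5.37% and 30.7% of all genes. Pyy, peptide YY, rose from 70.3 and 41.1 TPM to 199 and 142 TPM and Tac1 from 31.4 and 24.7 TPM to 83.5 and 62.4 TPM. Sst, somatostatin, was at 42.2 and 83.3 TPM against 164 and 113 TPM and lost its call without IR day 3 replicate 1 or Normal replicate 1. Neurog3, the factor that starts this lineage, fell from 2.23 and 7.36 TPM to 0.317 and 0.963 TPM. Without IR day 3 replicate 2, 7 enteroendocrine genes were higher, and without Normal replicate 1, 4 were lower. Of 6 tuft cell genes above the minimum, 2 were lower, near the 30.7% of all genes, and none was when IR day 3 replicate 2 or either Normal library was left out; the tuft cell kinase Dclk1 lay below the minimum.

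Enterocyte genes were lower in 9 of 26, near the 30.7% of all genes on the mitochondria-free scale, and higher in 1, with a median of -1.02. After quantile normalization 1 was higher and 8 lower, a larger share than the 14.7% of all genes. With the trend with transcript length removed 1 was higher and 5 lower (13.4% of all genes). The day 3 libraries differed from each other here, at summed levels of 23797 and 12594 TPM in the Normal libraries and 21692 and 5349 TPM in the IR day 3 libraries. The number called lower was 19 without IR day 3 replicate 1 and 5 without IR day 3 replicate 2. Brush border enzymes were among the genes that fell. Anpep, aminopeptidase N, was at 1862 and 1239 TPM in the Normal libraries and 461 and 168 TPM in the IR day 3 libraries (-2.44 ± 0.49, quantile -2.22, limma adjusted p = 0.0014). Alpi, intestinal alkaline phosphatase, was at 161 and 224 TPM against 54.9 and 41.7 TPM, and Enpep, aminopeptidase A, at 172 and 155 TPM against 47.2 and 28 TPM. Both held under all 3 scalings. Sis, sucrase-isomaltase, was at 1039 and 467 TPM against 294 and 124 TPM and was not called with the length trend removed. Lct, lactase, was at 23.1 and 23.4 TPM against 7.76 and 0.84 TPM and lost its call without IR day 3 replicate 2. Fabp1, a fatty acid binding protein, fell from 5558 and 1952 TPM to 2289 and 408 TPM, and lost its call without IR day 3 replicate 2 or Normal replicate 1, and with the length trend removed. Fabp2, of the same family, was at 3975 and 1505 TPM against 7596 and 1281 TPM and Apoa1, an apolipoprotein, at 3388 and 2041 TPM against 4079.7 and 1298 TPM, with overlapping groups in both. Mttp, the protein that loads lipid onto apolipoprotein B, fell from 350.4 and 227 TPM to 107 and 48 TPM. Sis, Fabp2, Apoa1 and Mttp were named after their values were seen.

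Genes of gut identity and region went in both directions. Cdx2 and Hnf4a, transcription factors of the intestinal epithelium, were at 134 and 143 TPM against 35.2 and 34.7 TPM and 121 and 225 TPM against 46.9 and 53.9 TPM, lower under all 3 scalings, while Epcam, the general epithelial marker, was at 1073 and 983 TPM in the Normal libraries and 566 and 573 TPM in the IR day 3 libraries and did not pass the fold limit. Of 4 tested genes of the proximal small intestine, 1 was higher and 2 lower, against 5.37% and 30.7% of all genes. After quantile normalization 1 was higher and 1 lower. Gata4, its transcription factor, fell from 68.4 and 73.1 TPM to 7.94 and 6.72 TPM. Cybrd1, the duodenal iron reductase, rose from 0.204 and 0.287 TPM to 9.83 and 12.5 TPM. With a Normal mean below 1 TPM, Cybrd1 passed the minimum only through other groups, so its rise gives no direction for the list. Of 4 ileum genes, 1 was higher and 2 lower, against 5.37% and 30.7% of all genes. Fabp6, the bile acid binding protein of the ileum, fell from 2625 and 1824 TPM to 71.8 and 236 TPM (-4.06 ± 0.83, quantile -3.67, limma adjusted p = 0.0017). Slc10a2, the bile acid transporter of the ileum, rose from 6.57 and 5.09 TPM to 13.5 and 22.8 TPM, and lost its call without IR day 3 replicate 2 or Normal replicate 2. The protocol takes crypts from the proximal part, and the markers of both ends of the small intestine were present in the Normal libraries.

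Reg lectins, antimicrobial proteins of the crypt, had 2 genes higher and 2 lower of 7, against 5.37% and 30.7% of all genes. Reg3b was at 27679.9 and 10356 TPM in the Normal libraries and 29776 and 26166 TPM in the IR day 3 libraries, abundant in all 4, with no passing difference. Reg3g was at 10550.2 and 3663 TPM against 13172 and 13241 TPM; its call was lost after quantile normalization, and without IR day 3 replicate 1, IR day 3 replicate 2 or Normal replicate 2. Reg1 was at 866 and 670.3 TPM against 276 and 345 TPM, and its fall lost its call without IR day 3 replicate 1 or Normal replicate 1. Reg4 rose from 149.8 and 208 TPM to 842 and 452 TPM, and Reg3a fell from 161 and 84.5 TPM to 35.2 and 34.2 TPM; both held under all 3 scalings.

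Interferon-stimulated genes were higher in 14 of 32 and lower in 4, against 5.37% and 30.7% of all genes, with a median of 0.88; the counts were 18 higher and 2 lower after quantile normalization, and 18 higher and 2 lower with the trend with transcript length removed. Of the 32, 3 had a Normal mean below 1 TPM, 1 of them among the higher genes. The Normal libraries differed here, replicate 1 being the higher in most members, and 7 genes were called higher without Normal replicate 2. Isg15, a ubiquitin-like protein (chr4:156199424-156200818), was at 76.7 and 17.3 TPM in the Normal libraries and 267 and 179.7 TPM in the IR day 3 libraries. The groups did not overlap (2.55 ± 0.46, quantile 2.84, limma adjusted p = 7.5e-04). Cxcl9, a chemokine for T cells, was at 0.699 and 0.115 TPM against 7.98 and 17.2 TPM and Gbp2, a guanylate-binding protein, at 2.1 and 1.34 TPM against 12.6 and 18.9 TPM. Irf7, a transcription factor of the type I response, rose from 51.2 and 28.4 TPM to 128 and 76.4 TPM, and lost its call without IR day 3 replicate 1 or Normal replicate 2. Irf1, another factor of the interferon response, fell from 114 and 90.7 TPM to 26 and 27.9 TPM. Of the 4 lower genes, Psmb9 and Parp14 were lower under the mitochondria-free scaling alone of the 3 (Psmb9 not without IR day 3 replicate 2 or Normal replicate 1, Parp14 not without any of the 4 libraries), and 1 gene was lower without IR day 3 replicate 2 or without Normal replicate 1.

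The interferon-stimulated response element (GAAA, any 2 bases, then GAAA, on either strand) was in 13 of the 28 members with a promoter entry (46.4%), against 3.05% of all promoters. It is in capitals in the promoter of Isg15 at chr4:156200819-156201068 (minus strand).
Isg15: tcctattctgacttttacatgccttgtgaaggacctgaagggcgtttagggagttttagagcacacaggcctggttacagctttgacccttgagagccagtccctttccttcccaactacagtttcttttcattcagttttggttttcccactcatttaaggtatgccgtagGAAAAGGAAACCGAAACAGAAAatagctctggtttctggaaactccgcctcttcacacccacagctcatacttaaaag

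Of 13 chemokine and cytokine genes, 2 were higher and 2 lower, beside the same shares of all genes as above. Cxcl16, a membrane-bound chemokine, rose from 6.43 and 7.51 TPM to 84 and 82.5 TPM, and Il33 was the other gene that rose. Ccl25, which draws lymphocytes to the small intestine, fell from 1046 and 849 TPM to 256 and 140.2 TPM, and Ccl28 from 11.5 and 12.7 TPM to 0.561 and 0.479 TPM. The number higher was 4 without IR day 3 replicate 2. Of 7 genes for presentation by MHC class II, 3 were lower, beside 30.7% of all genes. Ciita, the factor that switches the class on, was at 4.96 and 2.24 TPM against 0.395 and 0.255 TPM and was not called with the length trend removed. Cd74, the invariant chain, was at 1078 and 604 TPM against 477 and 234 TPM and lost its call without IR day 3 replicate 2 or Normal replicate 1. H2-Ab1 was at 569.8 and 333 TPM against 556 and 219 TPM with overlapping groups. Without IR day 3 replicate 2 or without Normal replicate 1, 1 of the 7 was lower.

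Genes of other cells were checked in the same libraries. Those of B cells and plasma cells, the cells that make antibody in the gut wall, were lower in all 8 tested (30.7% of all genes), under quantile normalization in 6 (14.7%) and with the length trend removed in 7 (13.4%). Of the 8, 4 had a day 3 mean below 1 TPM. Their summed level was 4379 and 3329 TPM in the Normal libraries and 252 and 113 TPM in the IR day 3 libraries. Igha, the heavy chain of immunoglobulin A, was at 1599 and 1325 TPM in the Normal libraries and 38.4 and 15.1 TPM in the IR day 3 libraries (-5.85 ± 0.46, quantile -5.3, limma adjusted p = 1.9e-06). Jchain, which joins IgA into dimers, fell from 209 and 119 TPM to 16.7 and 7.25 TPM. Without Normal replicate 1, 5 of the 8 were lower. Over all 138 tested immunoglobulin genes, whose segments are alike in sequence, 125 were lower and 1 higher; 55 of them had a day 3 mean below 1 TPM, and 74 of the other 83 were lower. The receptor that carries IgA across the epithelium, Pigr, which enterocytes and crypt cells make, fell as well, from 741 and 961 TPM to 22.7 and 8.28 TPM (-5.83 ± 0.57, quantile -5.23, limma adjusted p = 1.1e-05).

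T cell and intraepithelial lymphocyte genes summed to 1493 and 546 TPM in the Normal libraries and 2371 and 531 TPM in the IR day 3 libraries. Replicate 1 was the higher library in both groups, and the groups overlapped; Xcl1, a chemokine, was the gene called higher (6.9 and 4.16 TPM against 24.1 and 10.1 TPM), and not without IR day 3 replicate 1 or Normal replicate 2. Myeloid genes were higher in 4 of 12 and lower in 1, against 5.37% and 30.7% of all genes; 2 of the 4 higher had a Normal mean below 1 TPM, and 2 of the other 10 tested were higher. S100a8 and S100a9, the calprotectin subunits of neutrophils, were listed at 0 in both Normal libraries and at 65.7 and 9.5 and 105 and 19.7 TPM on day 3, with the day 3 libraries far apart. Cd14, a receptor for bacterial lipopolysaccharide, was at 10.6 and 8.55 TPM against 26.3 and 16.9 TPM, and its call was lost without IR day 3 replicate 1 or Normal replicate 2. Of genes of macrophages, C1qa, a complement subunit, was at 11.9 and 6.54 TPM against 39.97 and 14.5 TPM and was called higher under all 3 scalings, and not without IR day 3 replicate 1 or Normal replicate 2; C1qb (6.43 and 6.35 TPM against 23.6 and 5.28 TPM) and the receptor gene Csf1r (1.38 and 1.39 TPM against 1.17 and 0.785 TPM) did not pass the test. Without IR day 3 replicate 2, 7 myeloid genes were higher, and without IR day 3 replicate 1 or Normal replicate 2, 2 were. Among mast cell genes, Mcpt1, a protease of mucosal mast cells, fell from 46.4 and 68.6 TPM to 9.8 and 1.32 TPM, and Cma1 was listed at 0 in both Normal libraries and at 3.26 and 3.51 TPM on day 3. Hemoglobin genes, from blood, were at up to 65.6 TPM in Normal replicate 1 (Hbb-bs), and all 3 tested were lower on day 3, or 1 without IR day 3 replicate 2 or Normal replicate 1; 2 of the 3 had a day 3 mean below 1 TPM. No gene of smooth muscle or of enteric glia and neurons reached the minimum, and of fibroblasts 2 of 7 did, with 0 called and Col1a1 at means of 0.844 and 0.169 TPM. The 7 genes of the pancreatic acinar cell were all measured, at up to 121 TPM (Ctrb1, in Normal replicate 2), with 0 called. The part of these cells in the changes of other genes was not tested.

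In metabolism, 2 of 15 glutathione and NRF2 genes were higher and 2 lower, against 5.37% and 30.7% of all genes. The other 11 were not called, Nqo1 and Gclc among them. After quantile normalization 5 were higher (12.7% of all genes) and 2 lower (14.7%). Gpx2, the glutathione peroxidase of the gut epithelium, rose from 1412 and 1066 TPM to 6536 and 6595 TPM (2.42 ± 0.31, quantile 2.15, limma adjusted p = 6.9e-05), and Gsta4 from 93.7 and 92.5 TPM to 419 and 437 TPM. The glutathione transferase genes Gstm1 and Gstm3 fell, Gstm3 from 232 and 175 TPM to 6.32 and 1.83 TPM. All 4 calls held under the 3 scalings. Of 25 cholesterol synthesis genes, 5 were lower and 0 higher, fewer than the 30.7% of all genes. The number lower was 9 without IR day 3 replicate 2. Of 13 glycolysis genes, 2 were higher (5.37% of all genes) and 1 lower; the enzymes Hk2 (6.21 and 4.71 TPM against 4.6 and 5.51 TPM) and Ldha (1626 and 1555 TPM against 1995 and 1803 TPM) did not pass the test, and 1 was higher when IR day 3 replicate 1, IR day 3 replicate 2 or Normal replicate 2 was left out. Of 13 integrins and laminins, the receptors and matrix proteins of the crypt's base, 4 were higher (5.37% of all genes) and 1 lower, and 7 (12.7%) and 0 after quantile normalization. The 2 with a Normal mean below 1 TPM were among the higher genes, and 2 of the other 11 were higher. Itgb6, which wounded epithelium expresses, rose from 1.22 and 1.15 TPM to 11.9 and 24.7 TPM, Lama3 from 0.145 and 0.124 TPM to 1.9 and 2.65 TPM, and Itgav from 0.785 and 1.0 TPM to 4.2 and 4.48 TPM.

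The study had also drawn up an injury signature from published data on irradiated, worm-infected and colitic gut, so its genes were not picked from these libraries. Of its downregulated genes, 53 were tested and 44 were lower, with 0 higher, against 30.7% and 5.37% of all genes, and a median of -2.13 beside -0.57. The count was 37 after quantile normalization and 39 with the length trend removed. They included Vdr, the vitamin D receptor (42.5 and 65.1 TPM in the Normal libraries and 2.93 and 0.726 TPM in the IR day 3 libraries), Car4, a carbonic anhydrase (369 and 267 TPM against 11.8 and 9.57 TPM), and Aoc1, diamine oxidase (141 and 145 TPM against 9.99 and 5.0 TPM). Of the upregulated genes, 61 were tested, and 16 were higher and 12 lower, against 5.37% and 30.7% of all genes; the counts were 22 and 7 after quantile normalization, and 23 and 8 with the length trend removed. The number lower was 7 without IR day 3 replicate 2. Besides Ly6a, S100a11 and Sprr1a, the higher genes included Ido1, which breaks down tryptophan (0.892 and 0.29 TPM against 30.6 and 34.7 TPM). The lower genes included Zc3h7a (48.4 and 36.6 TPM against 2.71 and 4.08 TPM) and Pitpnm1 (16.1 and 26.7 TPM against 1.84 and 3.02 TPM).

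**Figure D4:**
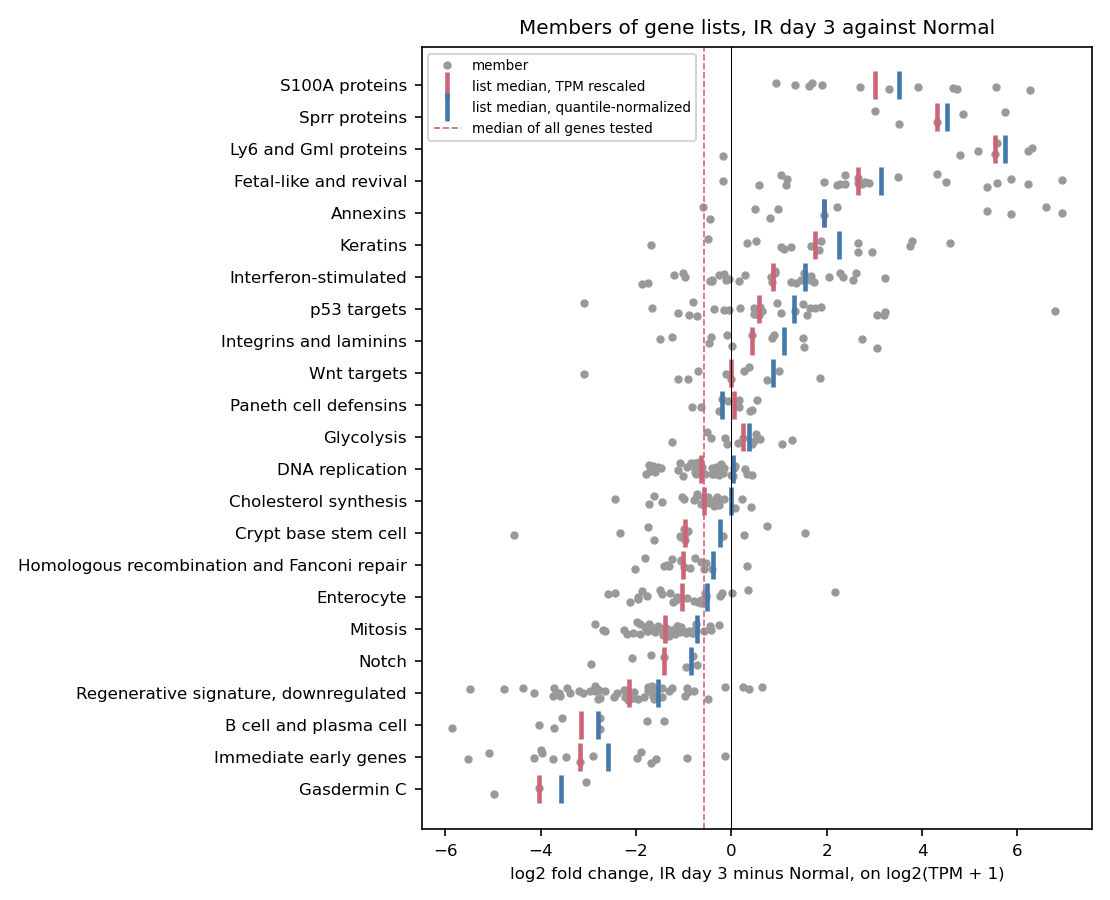
Log2 fold change of IR day 3 against Normal for the tested members of each gene list, 1 grey point a gene, with upright red and blue bars at the list median on the mitochondria-free and the quantile scale and the median of all genes (-0.57) as a dashed line. Most fetal-like genes lie to the right, at a median of 2.66, and the downregulated signature and mitosis lists to the left, at -2.13 and -1.4.

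Day 3 was also set directly against the other days after irradiation, which leaves the Normal libraries out of the contrast. Against day 1, 406 genes were higher (3.51%) and 2666 lower (23.1%); against day 2, 255 (2.21%) and 1844 (16%); and against day 5, 627 (5.43%) and 4176 (36.1%). The medians over all genes were -0.45, -0.30 and -0.69, respectively. After quantile normalization 946 genes were higher (8.15%) and 1337 lower (11.5%) than on day 1, 685 (5.9%) and 1185 (10.2%) than on day 2, and 1370 (11.8%) and 1729 (14.9%) than on day 5. These 3 contrasts share the IR day 3 libraries. The total of 3072 changed genes against day 1 was 1416 without IR day 1 replicate 1, and that of 2099 against day 2 was 703 without IR day 2 replicate 1 and 1304 without IR day 3 replicate 2.

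Most genes of the fetal-like list were higher on day 3 than on day 1, and fewer were higher than on days 2 and 5. Of its 23 genes, 20 were higher on day 3 than on day 1, 7 than on day 2 and 12 than on day 5, with 0 lower in each; after quantile normalization 19, 9 and 17 were higher. Clu was at 20.2 and 5.35 TPM on day 1, 71.7 and 109 TPM on day 2, 200.1 and 272 TPM on day 3 and 76.6 and 70.1 TPM on day 5. Day 3 was above each of the others (log2 differences 4.34 ± 0.40, 1.39 ± 0.40 and 1.66 ± 0.40, limma adjusted p = 1.9e-05, 0.021 and 0.0034). Anxa1 was at 6.29 and 5.25, 56.2 and 102, 335 and 311 and 63.4 and 93.1 TPM on the same days, and Ly6a at 41.5 and 37.7, 162 and 348, 762 and 950.0 and 177 and 458 TPM. In both, day 3 was above every other day by the same test. Other members did not pass the test between days 2 and 3. Il33 was at 62.8 and 74.9 TPM on day 2 against 45 and 62.5 TPM on day 3, and Anxa2 at 2704 and 2835 against 2231 and 2670.2 TPM, with day 2 the higher in both. Il1rn was also not called (182 and 181 against 246 and 252 TPM, 0.45 ± 0.44).

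Few targets of p53 differed in the test between day 3 and day 2, and against day 1 the share was near that of all genes. Of 28, 1 was higher and 5 lower on day 3 than on day 1 (3.51% and 23.1% of all genes). The counts were 0 and 2 against day 2 (2.21% and 16%), and 9 and 0 against day 5 (5.43% and 36.1%). After quantile normalization they were 3 and 3 (8.15% and 11.5%), 0 and 1 (5.9% and 10.2%), and 16 and 0 (11.8% and 14.9%). Cdkn1a was at 313 and 327 TPM on day 1, 347 and 333 TPM on day 2 and 159 and 163 TPM on day 5, and none of its differences from day 3 passed the fold limit. Phlda3 was at 75.7 and 79.6, 91 and 132, 167 and 198 and 14.1 and 19 TPM on days 1, 2, 3 and 5, higher on day 3 than on days 1 and 5.

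Most mitosis genes were lower on day 3 than on day 5. Of 44, 8 were lower on day 3 than on day 1, no larger a share than of all genes, 6 higher than on day 2 and 42 lower than on day 5, and of 40 DNA replication genes 4 were lower, 11 higher and 20 lower. After quantile normalization the higher and lower mitosis genes were 0 and 2, 10 and 0, and 0 and 25. Those of DNA replication were 0 and 0, 20 and 0, and 0 and 6. Of all genes, 23.1% were lower than on day 1, 2.21% higher than on day 2 and 36.1% lower than on day 5. These shares were 11.5%, 5.9% and 14.9% after quantile normalization. The 6 of 40 DNA replication genes lower than on day 5 were near the last of these. Mki67 was at 5.17 and 0.638, 0.753 and 0.331, 0.165 and 0.182 and 16 and 12.3 TPM on the 4 days. Olfm4 was at 52.2 and 51, 11 and 15, 18.9 and 11 and 184 and 129 TPM, with no passing difference between days 2 and 3. Both were higher again on day 5 (day 3 minus day 5, -3.68 ± 0.47 and -3.32 ± 0.41).

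Most enterocyte genes were lower on day 3 than on the days before it. Of 26, 21 were lower on day 3 than on day 1 (23.1% of all genes), 25 than on day 2 (16%) and 12 than on day 5 (36.1%). After quantile normalization 18 (11.5%), 25 (10.2%) and 9 (14.9%) were. The count against day 5 was the closest to its share of all genes. Lct was at 80.0 and 45.8, 311 and 127, 7.76 and 0.84 and 10.5 and 1.69 TPM, the highest on day 2. Igha was at 199.5 and 82, 43.2 and 62.7, 38.4 and 15.1 and 3.17 and 6.95 TPM and was higher on day 3 than on day 5 (2.13 ± 0.46). All 11 tested T cell genes and the 10 listed defensins were also higher on day 3 than on day 5; after quantile normalization 7 of the 10 defensins were, and 6 with the length trend removed. Gzma, granzyme A, was at 14.3 and 4.71 TPM on day 5. Reg3b was at 11869 and 13516, 6546 and 8317, 29776 and 26166 and 50864 and 84779.9 TPM, lowest on day 2 and highest on day 5, and day 3 differed from each of them (1.14 ± 0.36, 1.92 ± 0.36 and -1.23 ± 0.36); the call held against day 2 alone after quantile normalization.

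**Figure D5:**
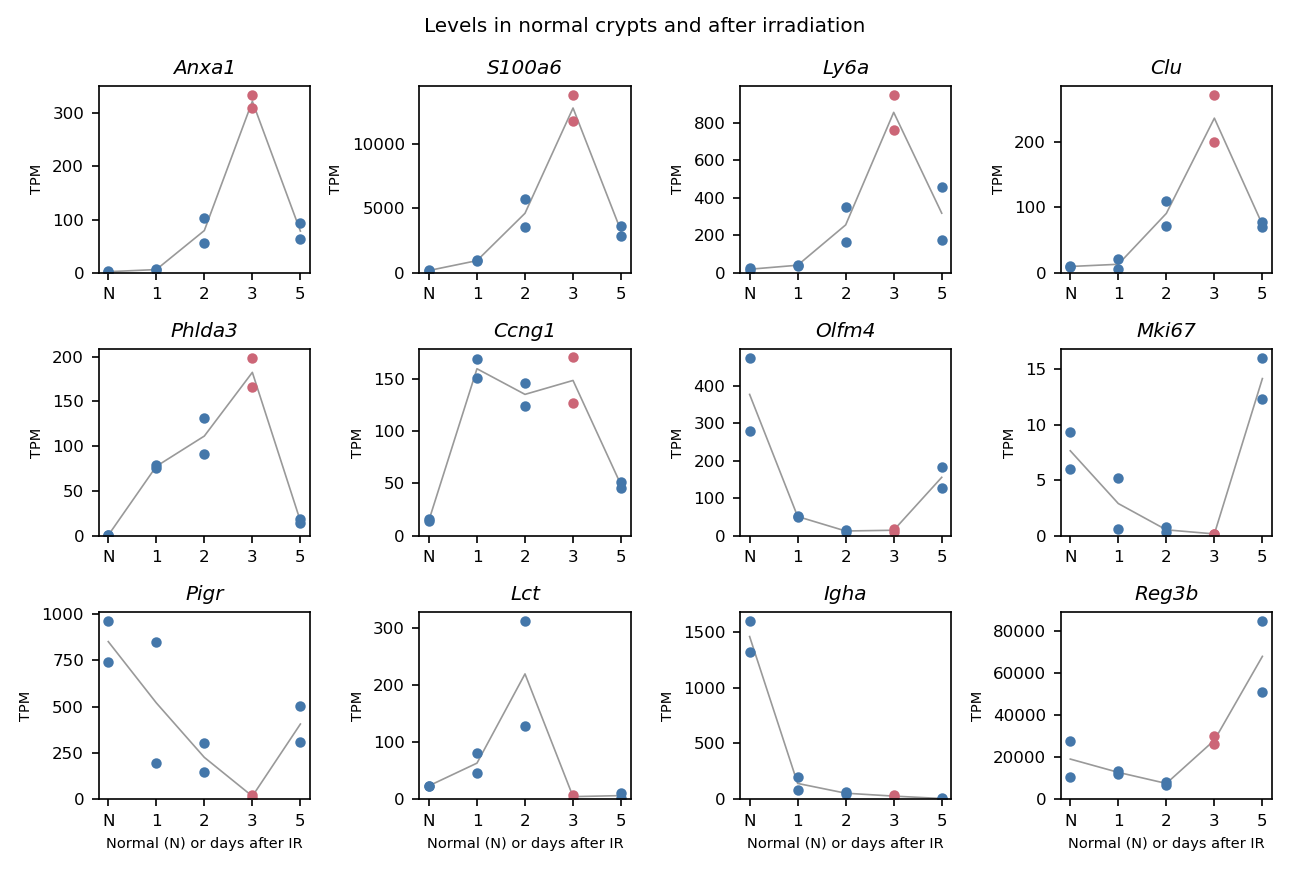
Levels of 12 genes in Normal crypts and 1, 2, 3 and 5 days after irradiation, as TPM on linear axes that start at 0 with mitochondrial genes left out; points are libraries (2 a group) and lines join the group means. Anxa1, S100a6, Ly6a and Clu are highest on day 3, while Mki67 and Olfm4 are low on days 2 and 3 and higher on day 5.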

How the data were processed

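Female mice were irradiated by the study, and crypts were taken as described above. Per the submitters' processing notes, the authors trimmed reads with Trimmomatic 0.39, aligned them to mm10 with STAR 2.7.3a and counted them with featureCounts; the count-to-TPM step, the annotation and the strand setting are not given in the sources used here. The deposited values are TPM, in 1 table for all bulk libraries. TPM keeps no read depth, so no counting error could be given and no count model was run; a gene listed at 0 has no known detection limit.

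Each crypt library was rescaled to 1000000 TPM without the 13 mt- genes. Tests used limma 3.58.1 in R 4.3.3 (lmFit, contrasts, eBayes with trend and robust) on log2(TPM + 1), with group as the only term, all 18 crypt libraries (2 in each of 9 groups) in the fit and genes that averaged 1 TPM or more. The script was tested on simulated data. With 2 libraries against 2, an exact permutation test cannot pass 0.05, and none was run. Lists were described by counts and medians, with no test of a list. Exon lengths came from GENCODE M21, and promoters from RefSeq.

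Named genes were, in each list, the first 2 members, the 3 largest rises and the 3 largest falls among called genes whose groups did not overlap, then the 10 largest rises and falls overall (predicted genes skipped), the regenerative genes of the study, and the 5 largest rises and falls against each other day; named outside this rule, after their values were seen, were the families of annexins, keratins, S100A, Sprr, Ly6 and gasdermin C proteins, alpha-defensins, immunoglobulins and immediate early genes with their members, and Aldh1a1, Aoc1, Apoa1, Ascl2, Bax, Basp1, C1qb, Cd14, Cnn2, Ctrb1, Eda2r, Emp1, F3, Fabp2, Irf7, Itgav, Ly6e, Mal, Mme, Msln, Mttp, Perp, Plaur, Psmb9 and Sis. Some genes that the rule picks are not reported here. The comparison, the members and the lists were chosen with earlier results of these data known. The alternatives tried were mitochondrial genes kept, quantile, 75th percentile and cyclic loess scaling, a pseudocount of 0.1, a minimum of 5 TPM, no minimum, the minimum over the 4 libraries, no fold limit, plain eBayes, the 4 libraries alone, a replicate block, the length trend removed, each library left out and, added after seeing the data, immunoglobulin, Sprr and S100A genes left out before rescaling.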

Additional observations from a re-analysis of the deposited data

Results flagged for a closer look

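Day 3 differed from each other day after irradiation in the direct test of the difference, for 3072 genes against day 1, 2099 against day 2 and 4803 against day 5 (limma, adjusted p under 0.05 and 2-fold). Some genes had moved away from Normal in opposite directions on the days compared, with the days also different from each other. On day 3 lower and on day 1 higher than Normal were 6 genes, among them the retinal dehydrogenase gene Aldh1a1 (log2 fold change against Normal -1.62 on day 3 and 1.92 on day 1), which was named after its values were seen, and 0 genes had the reverse pattern. Against day 2, 46 genes were lower than Normal on day 3 and higher on day 2, among them the enterocyte genes Alpi, Enpep, Lct, Mme and Mttp (the fall of Lct was lost without IR day 3 replicate 2, and that of Mme without IR day 3 replicate 2, Normal replicate 1 or Normal replicate 2), and 1 gene had the reverse pattern. Against day 5, 68 genes were lower than Normal on day 3 and higher on day 5, and 10 higher on day 3 and lower on day 5, among them the hormone genes Pyy, Sst and Tac1.

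The transcripts of the mitochondrial genome, which the comparisons leave out, took 18.1% and 12.7% of the listed TPM in the Normal libraries and 48.4% and 37.9% in the IR day 3 libraries.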

How the results depend on the processing

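The number of genes changed between IR day 3 and Normal crypts was 4166, between 2970 and 6090 under the other settings and between 3322 and 4299 with each library left out. Its division into higher and lower genes moved with the scaling: 276 and 5538 with mitochondrial genes kept, 1479 and 1704 after quantile normalization, 1397 and 2070 by the 75th percentile, 1394 and 1598 by cyclic loess, and 1424 and 1546 with the length trend removed. Without a fold limit 1075 were higher. With each library left out, between 601 and 612 were higher and between 2710 and 3698 lower. Against day 1 the total of 3072 became 2028 by cyclic loess, 1903 with the length trend removed, 4648 without a fold limit and 1276 with only the 4 libraries in the fit, and was 1416 to 4286 with each library left out. Against day 2 the 2099 became 3309 without a fold limit, and 703 to 2702 with each library left out, the lowest without IR day 2 replicate 1. Against day 5 the 4803 became 3099 after quantile normalization, 2966 by cyclic loess and 2620 with the length trend removed. The causes of these shifts were not tested. Where a library was left out of a pair, the lone library was taken to vary like the other groups.

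Replicate numbers are shared between groups, and with the number as a replicate block 4214 genes changed (626 higher and 3588 lower) and 6 of the 4166 genes lost their call, none of them among the genes named. Deviations of same-numbered libraries correlated at 0.22 between IR day 3 and Normal and at -0.20 to 0.33 over 36 pairs of crypt groups, so the numbers were not taken to pair the libraries.

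Of 250 genes tested and chosen by the naming rule or added to it, 192 were called. None of these reversed in any setting run, and 66 lost the call in at least 1: 24 after quantile normalization, 27 with the length trend removed, 25 with mitochondrial genes kept, and 19 to 27 with a library left out. Of the 58 not called, 34 were called in some setting. The unknown depth of TPM values and 2 libraries a group limit what could be detected among genes with low levels.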
